A study of Mus musculus with 4 samples.

Results

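Phosphatidylcholine is the main phospholipid of hepatocyte membranes, lipoproteins and bile, and 10 genes of its synthesis, transfer, remodelling and biliary export were followed in mouse liver. They are Pctp, Stard10, Chka, Chkb, Pcyt1a, Chpt1, Cept1, Pemt, Lpcat3 and Abcb4, found by symbol among 37315 gene rows, and all 10 were present and passed the filter on low counts. The genes were listed by function with the comparison of the groups already known: Pctp was chosen by its lower count in mutant liver in this same comparison. For that reason the differences of all 10 between the groups are a description. Their intervals and calls come from a fit over all genes and, being from the comparison that chose Pctp, are no independent evidence. Libraries came from liver of 23-week-old C57BL/6 mice, 2 from wild type animals and 2 from animals carrying a synonymous Foxo1 mutation, a coding change that leaves the amino acid as it is. Strain, age and tissue were the same in both groups. Where in the gene the change lies, and whether the mice were fed, fasted, male or female, is not stated in the labels, which also do not say that each library was a separate animal. A p-value therefore measures only the spread between these libraries, and that spread may be technical.

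Hepatocytes make phosphatidylcholine by 2 routes. In the Kennedy pathway choline is phosphorylated by a choline kinase (Chka or Chkb), activated to CDP-choline by Pcyt1a, the rate-limiting step, and joined to diacylglycerol by Chpt1 or Cept1. In the other route, which is largely a liver route, Pemt methylates phosphatidylethanolamine. The acyl chains are then exchanged by Lpcat3, which favours polyunsaturated chains. Abcb4 moves phosphatidylcholine into the outer leaflet of the canalicular membrane, from which bile salts carry it into bile. Pctp (StarD2) and Stard10 are soluble proteins with a START lipid-binding domain that bind and transfer phosphatidylcholine.

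Because the comparison concerns Foxo1, a forkhead transcription factor, the DNA before the start sites of 2 members is shown: Pctp, the member with the largest difference, and Stard10, its START domain relative and the only member with the forkhead core motif in its window. Both are 250 bases from RefSeq (build GRCm38.p6, the build of mm10), read 5′ to 3′ on the strand of the gene and ending at the base before the start site. Pctp lies on the minus strand (chr11:90002895-90003144) and Stard10 on the plus strand (chr7:101316836-101317085). Capitals mark a match to a searched motif, which is CCAAT in Pctp and GTAAACA in Stard10.
Pctp: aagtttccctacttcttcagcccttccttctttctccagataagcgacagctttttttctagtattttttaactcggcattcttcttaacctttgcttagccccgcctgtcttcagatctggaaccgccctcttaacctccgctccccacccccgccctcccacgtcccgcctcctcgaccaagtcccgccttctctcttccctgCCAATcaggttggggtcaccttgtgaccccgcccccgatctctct
Stard10: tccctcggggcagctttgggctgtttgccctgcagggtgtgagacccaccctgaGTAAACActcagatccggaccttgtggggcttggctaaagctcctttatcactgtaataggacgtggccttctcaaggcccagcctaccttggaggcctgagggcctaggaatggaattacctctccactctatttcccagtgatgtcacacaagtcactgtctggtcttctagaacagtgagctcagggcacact

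Windows of 300 bases (250 before and 50 after the start) were found for all 10 genes, 15 windows in all, since Cept1, Pcyt1a and Pemt have more than 1 start. 6 exact motifs were searched on both strands. The forkhead core, GTAAACA, was in 1 of the 15 windows, that of Stard10, and in 3.65% of all 32851 windows of this length. The insulin response core, spelled CAAAACA, was found in 1 window, the third one of Cept1, against 6.28% of all windows in the table. AGGTCA, 6 letters that are only part of a nuclear receptor site, occurred in Pctp, 13 bases after its start on the opposite strand. The third window of Pcyt1a also held AGGTCA, against 16.3% of all windows. The CCAAT box was in 8 of the 15 windows and in 37.4% of all windows, and no searched motif overlapped another in these windows. For the cAMP response element only a part, TGACGT, was searched, which was present in the window of Chkb and in 7.51% of all windows. The E-box, with the letters CACGTG, was in 0 of the 15 and in 7.15% of all windows. These are matches of letters and do not show binding.

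Values below are normalised CPM (reads of a gene scaled by the size of the library), and each log2 fold change is the mutant over the wild type level. Library totals ranged from 73551737 to 95908652 counts. Foxo1 itself overlapped between the groups, at 44.0 and 54.8 CPM in the wild type and 33.6 and 53.4 CPM in the mutant libraries (difference of −0.18 on the log2 scale, SE 0.30, adjusted p = 0.9999 in edgeR). A synonymous change need not alter the count, so this does not check the labels. Hepatocyte markers summed to 103810 and 117270 CPM in the wild type and 102330 and 99157 CPM in the mutant libraries. Most of each sum was Alb, at 71504 and 80697 CPM in the wild type and 67932 and 64783 CPM in the mutant libraries. Of the 10 log2 fold changes 5 were positive, and their median was 0.03, opposite in sign to the sums. Markers of macrophages, including Kupffer cells, were higher in the mutant libraries: 14 of 14 had a positive log2 fold change, 7 passed the threshold of an edgeR adjusted p below 0.05, and the list summed to 411 and 453 CPM in wild type against 640 and 717 CPM in mutant liver. None of these 14 was at 0. Sinusoidal endothelial markers summed to 217 to 228 CPM and cholangiocyte markers to 31.3 to 35.99 CPM over the 4 libraries, and both overlapped between groups. Erythroid markers were also higher in the mutant libraries, at 239 and 266 CPM in wild type against 296 and 334 CPM in mutant liver in sum; 5 of 5 tested had a positive log2 fold change and 1, the globin gene Hbb-bt, passed the threshold (0.79, adjusted p = 0.0145 in edgeR). Lymphocyte markers (3.48 to 6.58 CPM in sum, median log2 fold change 0.71 over 8 tested) and neutrophil markers (0.555 to 1.58 CPM, median 1.41 over 2 tested) were low, and none of them passed. Stellate cell markers summed to 248 to 288 CPM and overlapped. Among 8 pancreas and adipose markers, Prss1, Cpa1, Adipoq and Plin1 were at 0 in every library.

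Pctp was lower in mutant liver, and the log2 fold changes of the other 9 genes lay between −0.22 and 0.07, with wide intervals for Chka and Lpcat3. Pctp (ENSMUSG00000020553, mm10 chromosome 11, 89982665 to 90002894, minus strand) was at 96.5 and 89.9 CPM in the wild type libraries and at 60.5 and 66.3 CPM in the mutant libraries. Both mutant libraries were below both wild type libraries, and the gap between the groups was wider than the spread inside either. The group means were 93.2 ± 4.67 and 63.4 ± 4.11 CPM (SD, n = 2 each), a difference of −32.0%. The log2 fold change was −0.56 with an SE of 0.09 and a 95% confidence interval of −0.76 to −0.36, that is 0.591 to 0.781 of the wild type level. In the fit over all 14657 tested genes, 588 (4.01%) had a log2 fold change as low as that of Pctp or lower.

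No exon base of Pctp is shared with another annotated gene, and the same holds for Stard10, Pemt and Abcb4. In bulk liver, fewer cells of a type and less RNA per cell cannot be told apart. Given above for the same mutant libraries are the higher macrophage markers and the higher erythroid and lower hepatocyte sums, the last mostly Alb. Their part in the value of Pctp was not tested.

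**Figure D1:**
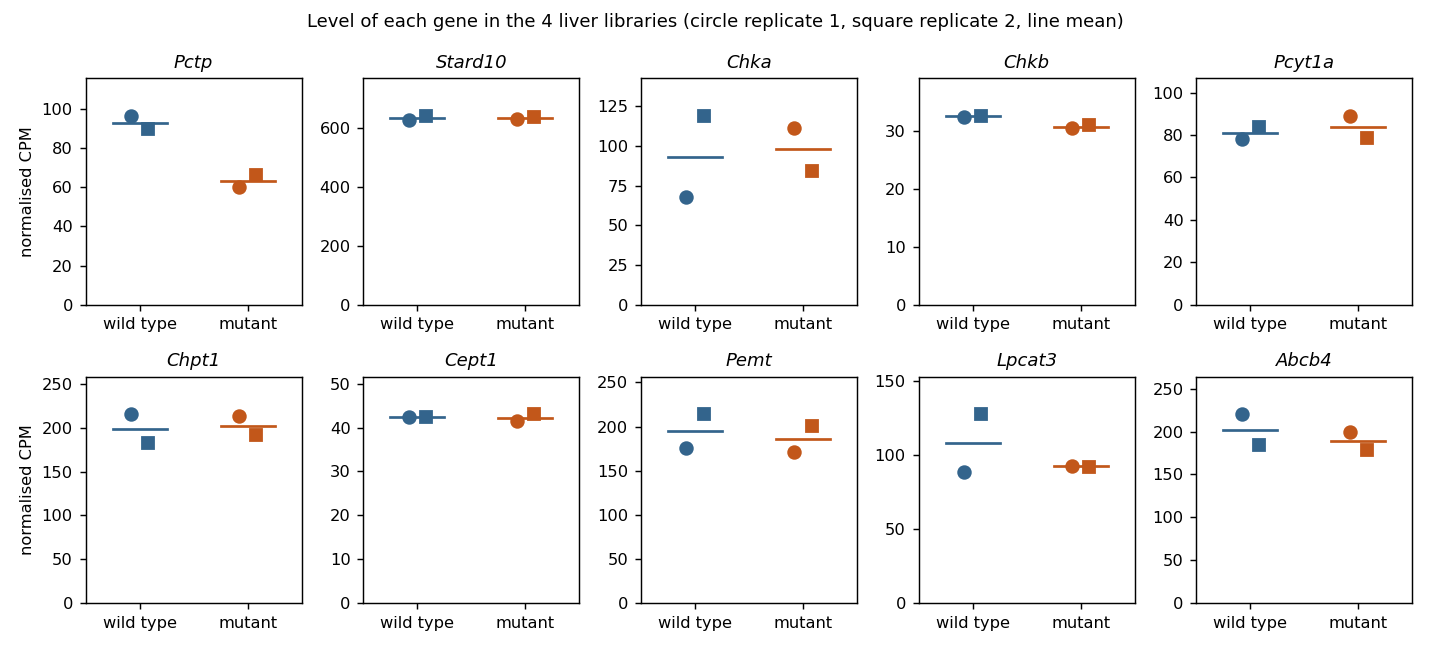
Normalised CPM (vertical axes, each starting at 0) of the 10 genes in the wild type and mutant liver libraries; circles are replicate 1, squares replicate 2 and lines the group means. Pctp is at 89.9 to 96.5 CPM in wild type and 60.5 to 66.3 CPM in mutant liver, whereas Stard10 is at 625 to 639 CPM in all 4 libraries.

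Stard10 (ENSMUSG00000030688, chromosome 7), the other transfer protein, was almost the same in every library. It was at 625 and 639 CPM in the wild type and 628 and 637 CPM in the mutant libraries. The mutant values lay between the wild type values. Its log2 fold change was 0.00 (0.0023 before rounding), with a 95% confidence interval of −0.22 to 0.22. Per kilobase of exon, Pctp was at 0.137 and 0.125 of the level of Stard10 in wild type and at 0.0855 and 0.0924 of it in mutant liver.

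The choline kinases behaved differently from each other in spread. Chka was at 67.6 and 119 CPM in the wild type and 112 and 84.1 CPM in the mutant libraries. Wild type replicate 1 was the lowest and wild type replicate 2 the highest, 1.76 times as high, and both mutant values lay between them. Its log2 fold change, 0.07 (SE 0.41), had an interval of −1.39 to 1.53, the widest of the 10, so a change of 2-fold in either direction lies inside it. Its SE was exceeded by 19.5% of the tested genes. The value turned to −0.28 without wild type replicate 1 and to −0.15 without mutant replicate 1, and was 0.53 without wild type replicate 2.

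Chkb was at 32.4 and 32.5 CPM in the wild type and 30.4 and 30.9 CPM in the mutant libraries. Both mutant values were lower, by a small margin (log2 fold change −0.08, SE 0.09, interval −0.28 to 0.12). Of its exon bases 10.5% are shared with C730034F03Rik on the opposite strand, and reads from there cannot be told apart without strand. A further gene of the annotation, Gm44502, shares 50.7% on the same strand. Gm44502 is absent from the 37315 gene rows, and whether the annotation used for counting held it is not stated. Groups that did not overlap were found for 2 of the 10 genes, Pctp and Chkb, both lower in mutant liver. Among all tested genes 34.1% had groups that did not overlap.

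Pcyt1a, which sets the pace of the Kennedy pathway, was at 77.98 and 83.8 CPM in the wild type and 88.9 and 78.4 CPM in the mutant libraries. The 4 values interleaved. Its log2 fold change was 0.05 (SE 0.10, interval −0.16 to 0.26). The last step had 2 enzymes with equally small differences. Chpt1, which makes phosphatidylcholine in the Golgi, was at 215 and 182 CPM in the wild type and 214 and 192 CPM in the mutant libraries (log2 fold change 0.03, SE 0.11). Cept1, which uses both CDP-choline and CDP-ethanolamine, was at 42.5 and 42.3 CPM in the wild type and 41.5 and 43.0 CPM in the mutant libraries (−0.01, SE 0.09). Replicate 1 was above replicate 2 in both groups for Chpt1, while the 2 mutant values of Cept1 enclosed both wild type values. Opposite-strand exons overlap those of Cept1 (24.7% with Dennd2d), Chpt1 (7.93% with Sycp3), Pcyt1a (7.65% with Slc51a) and, for the choline kinase above, Chka (0.615% with Gm16066).

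Pemt, the enzyme of the methylation route, was at 175 and 214 CPM in the wild type and 171 and 201 CPM in the mutant libraries. Here replicate 2 was above replicate 1 in both groups, and the groups overlapped (log2 fold change −0.07, SE 0.12, interval −0.33 to 0.20). Per kilobase, Pemt stood at 7.92 and 8.98 times the level of Pcyt1a in wild type and at 6.78 and 9.02 times in mutant liver, so the balance of these transcripts of the 2 routes also overlapped.

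Lpcat3, the remodelling acyltransferase and a known target of the liver X receptors, was at 88.1 and 127 CPM in the wild type and 92.6 and 92.0 CPM in the mutant libraries. The mutant values fell between the wild type values. Its log2 fold change of −0.22 (SE 0.17, interval −0.62 to 0.18) was the second lowest of the 10 and rested on wild type replicate 2: without that library it was 0.07, and without wild type replicate 1 it was −0.46. Exons of Emg1 on the opposite strand cover 10.2% of its exon bases. The canalicular floppase Abcb4 was at 220.1 and 185 CPM in the wild type and 199.7 and 178 CPM in the mutant libraries. Its groups overlapped as well (−0.10, SE 0.11, interval −0.34 to 0.15).

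**Figure D2:**
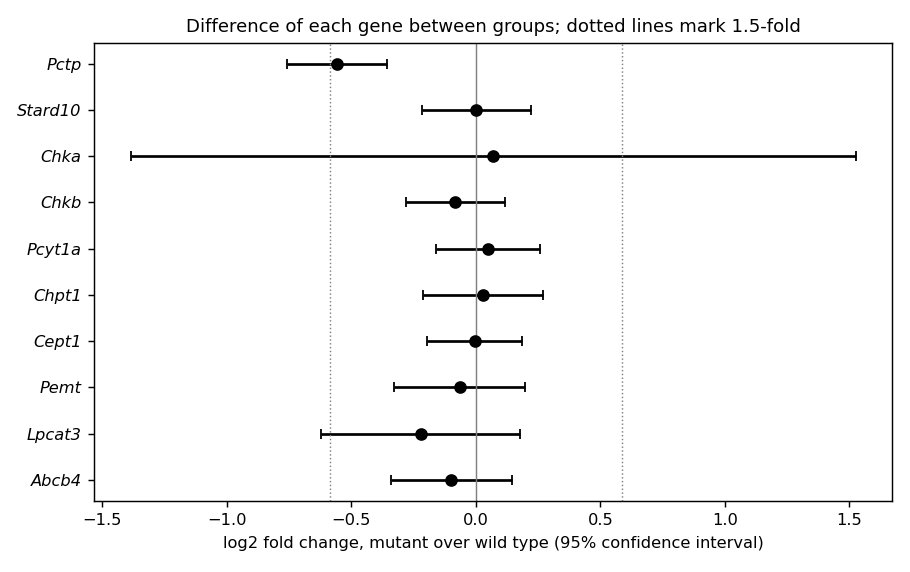
Log2 fold change of each of the 10 genes, mutant over wild type (horizontal axis), with bars for the 95% confidence interval of the edgeR fit and dotted lines at 1.5-fold. The interval of Pctp runs from −0.76 to −0.36, that of Chka from −1.39 to 1.53, and those of the other 8 genes include 0.

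Of the 10 genes, 1 was called in the fit over all genes (quasi-likelihood test of edgeR at a Benjamini-Hochberg adjusted p below 0.05), namely Pctp. Over all tested genes 0.341% were called, and 0.0614% were called lower in mutant liver. Since Pctp was chosen with this call known, the count is not a result about the group of genes. DESeq2 also called Pctp alone (0.888% of all genes called) and limma-voom called none of the 10 (0.0478% of all genes). Among the other 9, edgeR, DESeq2 and limma-voom called 0, and 0 had an unadjusted p below 0.05, where 6.19% of all tested genes did. For 7 of these 9 the 95% interval lay inside a 1.5-fold change in either direction, the exceptions being Chka and Lpcat3. The share among all tested genes was 60.0%. The median log2 fold change was −0.04 over the 10 genes, −0.01 without Pctp and −0.00 (−0.0013) over all tested genes.

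The call of Pctp depended on having all 4 libraries. With any 1 library left out its log2 fold change stayed between −0.63 and −0.49, but Pctp did not pass the threshold in any of these 4 fits, each of which leaves 1 group with a single library assumed to vary like the other group. Of all tested genes, 0.0887% and 0.116% were called without wild type replicates 1 and 2, and 0.0205% and 0.102% without mutant replicates 1 and 2. It was also not called by limma-voom, by edgeR without robust estimation or with a filter of 1 CPM in 2 libraries, at log2 fold changes of −0.56, −0.56 and −0.55; of all genes, the latter fits called 0.0546% and 0.208%. Of the other 9 genes, 8 changed sign with some library left out; the exception was Chkb (−0.10 to −0.07).

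**Figure D3:**
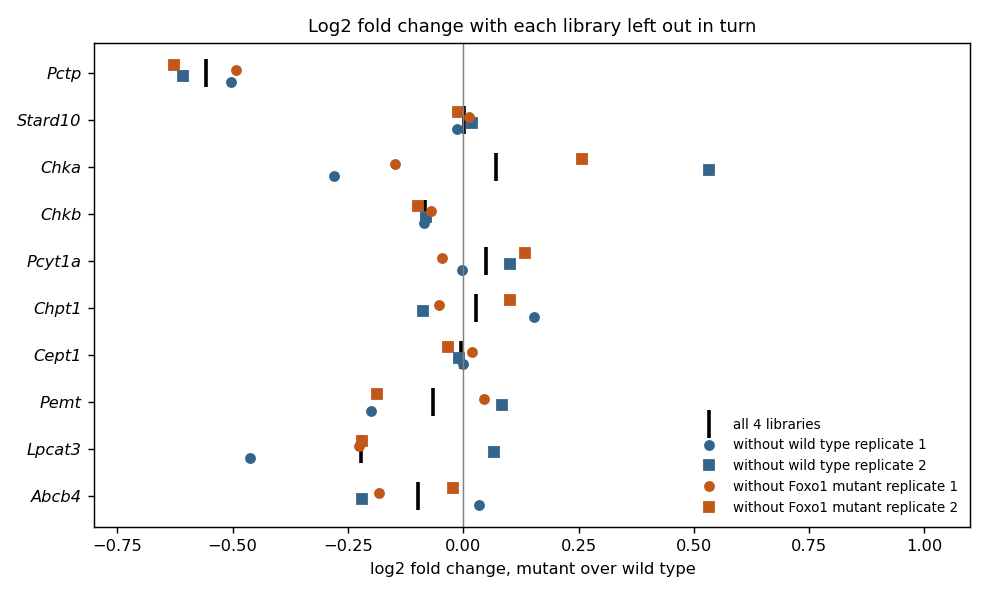
Log2 fold change of each gene, mutant over wild type (horizontal axis), with all 4 libraries (vertical tick) and with each library left out (blue for wild type, orange for mutant, circle for replicate 1, square for replicate 2). The points of Pctp lie between −0.63 and −0.49, and those of Chka between −0.28 and 0.53 on both sides of 0.

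To compare levels between genes, CPM were divided by the length of the merged annotated exons. This length counts every annotated exon, also those not used in liver. Stard10 was the highest, at 258 to 264 CPM per kilobase over the 4 libraries, above Pemt at 81.3 to 102 CPM per kilobase. Next came Lpcat3 (27.0 to 38.9), Pctp (22.2 to 35.5), Chpt1 (21.9 to 25.9) and Abcb4 (18.98 to 23.5), each overlapping its neighbour in this order. Cept1 followed at 13.3 to 13.8 CPM per kilobase, below all of these. Pcyt1a (10.52 to 11.99) and Chkb (9.93 to 10.6) overlapped each other, and Chka, at 5.63 to 9.88 CPM per kilobase, was the lowest in the mean. In wild type liver Pctp was at 35.5 and 33.0 CPM per kilobase, above Chpt1 (25.9 and 21.9), and in mutant liver at 22.2 and 24.3, where it overlapped Chpt1 (25.7 and 23.0).

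**Figure D4:**
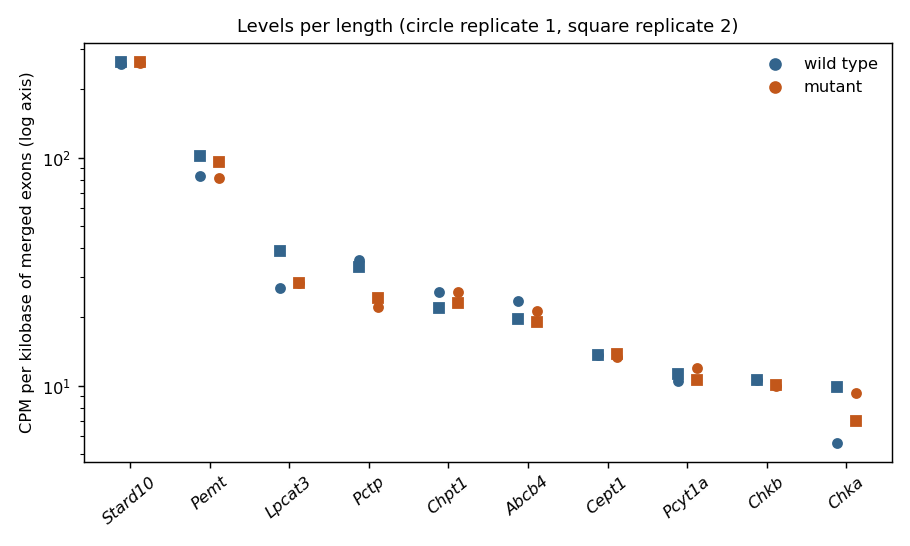
CPM per kilobase of merged exons (log axis) for the 10 genes, ordered by mean; blue is wild type, orange mutant, circles replicate 1 and squares replicate 2. Stard10 lies at 258 to 264 and Chka, the lowest in the mean, at 5.63 to 9.88 CPM per kilobase.

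Around these 10 genes, the wider set of phospholipid genes gave no call. Of 114 symbols in 8 lists, 113 were in the files (Cert1 is a newer symbol of Col4a3bp, listed under both) and 107 were tested. In edgeR 0 rose and 0 fell past the adjusted p of 0.05, and DESeq2 and limma-voom also called 0. At an unadjusted p below 0.05 there were 8 of 107, of which 3 were higher and 5 lower; over all tested genes it was 6.19%, of which 582 were higher and 325 lower. The median log2 fold change was −0.00 (−0.0042), with 51 positive and 56 negative, and 78.5% had a 95% interval inside a 1.5-fold change. Groups did not overlap in 43 of the 107 (40.2%), against the 34.1% of all tested genes given above.

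Choline and ethanolamine uptake and activation had 8 tested genes, 4 positive and 4 negative, with 0 at an unadjusted p below 0.05 and a median of −0.03. Its highest members were Pcyt2, which makes CDP-ethanolamine, at 431 ± 26.5 and 409 ± 8.55 CPM (wild type, then mutant, as for all pairs of means below), and the ethanolamine kinase Etnk2 at 252 ± 30.9 and 261 ± 28.3 CPM. Pcyt1b, the paralog of Pcyt1a, was at 0.0945 to 0.193 CPM and was not tested. The 6 genes of phosphatidylserine formation and decarboxylation divided 3 and 3, with Serinc3 at 208 ± 17.4 and 231 ± 17.5 CPM and Serinc1 at 185 ± 3.16 and 195 ± 19.1 CPM.

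Among 14 genes that supply phosphatidate and diacylglycerol, 5 were positive and 9 negative, with a median of −0.04. The phosphatidate phosphatase Lpin2 was at 270.2 ± 7.12 and 234 ± 20.97 CPM, and the acyltransferase Agpat2 at 194 ± 12.2 and 189.5 ± 0.0912 CPM. Methyl supply and choline oxidation feed and drain the Pemt route through S-adenosylmethionine and betaine. Its 14 genes had a median of −0.02, with Mat1a, the liver S-adenosylmethionine synthetase, at 3080 ± 258 and 3453 ± 136 CPM. Bhmt, which uses betaine to methylate homocysteine, was at 3992 ± 660.4 and 4185 ± 1248 CPM. All 14 were above an unadjusted p of 0.05.

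Acyl chain remodelling and breakdown was the largest list, with 26 tested genes, 15 positive and 11 negative. An unadjusted edgeR p below 0.05 was found for 5, 3 higher and 2 lower, and for 6.19% of all tested genes. The 3 higher genes were low, at 1.85 CPM or less in every library. Lcat, which moves an acyl chain from phosphatidylcholine to cholesterol in plasma, was at 329 ± 15.7 and 349 ± 11.4 CPM, and the lysophospholipase Lypla1 at 151 ± 0.511 and 163 ± 6.71 CPM. Among the 17 transfer proteins and START domain relatives of Pctp, 7 were positive and 10 negative, with a median of −0.05 and 1 at an unadjusted p below 0.05. Stard7, which carries phosphatidylcholine to mitochondria, was at 119 ± 9.64 and 111 ± 3.37 CPM, and the sterol carrier protein Scp2 at 3338 ± 490.0 and 3734 ± 426 CPM.

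The 16 canalicular and membrane lipid transporters divided 8 and 8, with 2 at an unadjusted p below 0.05. Abcb11, the bile salt export pump that acts beside Abcb4, was at 752 ± 71.5 and 702 ± 33.5 CPM, and the organic anion transporter Abcc2 at 567 ± 41.8 and 569 ± 39.3 CPM. Per kilobase, Abcb4 was at 0.172 and 0.126 of the level of Abcb11 in wild type and at 0.161 and 0.135 of it in mutant liver. Sphingomyelin synthesis, which takes its headgroup from phosphatidylcholine, was listed together with sphingomyelin breakdown. The 3 genes of the synthase family were negative and the 3 sphingomyelinases positive, with 0 at an unadjusted p below 0.05 in edgeR. The synthase Sgms2 was at 45.5 ± 0.116 and 44.6 ± 1.38 CPM, and the sphingomyelinase Smpd1 at 35.4 ± 2.41 and 37.6 ± 2.29 CPM. The 16 genes named in these lists had edgeR adjusted p of 0.881 to 0.9999. Opposite-strand exons overlap Abcb11 (Gm13613 and Gm13614), Agpat2 (Egfl7), Bhmt (Gm15622) and Serinc3 (0610039K10Rik). Lypla1 shares exon bases with Gm37988 on the same strand, a gene absent from the 37315 gene rows.

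**Figure D5:**
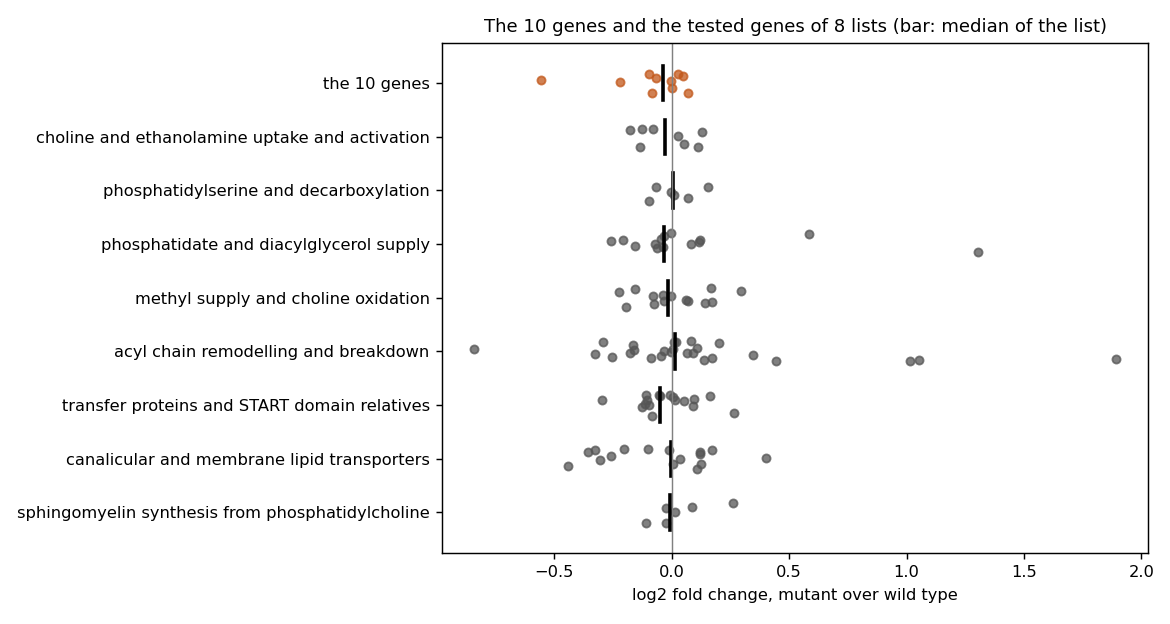
Log2 fold change, mutant over wild type (horizontal axis), of the 10 genes (orange) and of the tested genes of 8 phospholipid lists (grey), with a black bar at each median; the vertical scatter inside a row has no meaning. Pctp, at −0.56, is the lowest of the 10, and the list medians lie between −0.05 and 0.01.

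Likeness to Pctp was taken from log2 CPM minus the mean of the gene, as the root mean square difference over the 4 libraries. Genes without a symbol, or with a predicted-gene or clone name (Gm, Rik, AC or AL), were left out. The genes whose 4 values were most like those of Pctp were found among 8949 other tested genes with a mean log2 CPM of at least 2. In order of likeness they were Fam198a, the mitochondrial glycerol-3-phosphate dehydrogenase Gpd2, the carboxylesterase Ces2e, Zfp704 and Cep89, with differences of 0.0387 to 0.0709 on the log2 scale. Gpd2 was at 28.7 and 24.6 CPM in the wild type and 17.6 and 19.8 CPM in the mutant libraries, and Ces2e at 181 and 174 CPM in the wild type and 125 and 128 CPM in the mutant libraries. Ces2e has close relatives in its family, which may share reads with it. Exons of Gpd2 and Zfp704 overlap opposite-strand genes (A930012O16Rik and C030034L19Rik), and those of Fam198a the same-strand gene Gm49343. Of these 3, A930012O16Rik alone was among the 37315 gene rows. Likeness to Pctp picks genes that are lower in both mutant libraries, so their log2 fold changes of −0.60 to −0.49 are a description. Of the other 9 phosphatidylcholine genes the nearest to Pctp was Chkb, at rank 1609 (0.24), and the farthest was Chka, at rank 8697 (0.503).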

How the data were processed

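RNA was extracted with TRIzol, poly(A) RNA was isolated with Dynabeads and libraries were made with a TruSeq RNA kit that does not mark strand, per the labels' protocols. The authors deposited 1 file per library with raw counts of reads for each Ensembl gene. TopHat2 2.1.1, HTSeq 0.6.0 and mm10 are named in the submitters' processing notes; how reads were assigned to genes, whether strand was used and which annotation served is not stated there. No row was a summary row, and 35449 of 37315 identifiers (95.0%) had a symbol in GENCODE M21.

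Counts were filtered (filterByExpr, minimum count of 10), scaled by TMM and tested with edgeR 4.0.16 in R 4.3.3 (glmQLFit with robust estimation, glmQLFTest, group as the only term), with Benjamini-Hochberg adjustment over 14657 genes. A gene passed at an adjusted p below 0.05. An SE was taken as the size of the log2 fold change divided by the square root of its F statistic. DESeq2 1.42.0 and limma-voom (limma 3.58.1), other scalings and filters, the replicate block and leaving out each library were alternatives. A floor of 3 counts is 0.0313 to 0.0408 CPM, counting error only. The fit was tested on simulated data. The 10 genes and the lists were chosen with earlier results of these data known. Named beside the 10 were Foxo1, the members of each list past the threshold or, with none, the 2 of highest mean CPM, and the 5 genes most like Pctp. A planned comparison of protein sequences was not run.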

Additional observations from a re-analysis of the deposited data

How the results depend on the processing

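Over all genes, 50 were called, and the count was 258 with no filter, 24 with a filter of 1 CPM in 2 libraries, 109 with DESeq2, 7 with limma-voom, 8 without robust estimation and 3 to 17 with 1 library left out. Of the 10 genes, 1 (Pctp) was called; 0 were called with the filter of 1 CPM in 2 libraries, limma-voom or no robust estimation (log2 fold changes of Pctp −0.55, −0.56 and −0.56), and 0 with any 1 library left out (−0.63 to −0.49). The cause was not tested, except that a left-out library leaves fewer samples. Among the other phospholipid genes 0 were called, and 1 with no filter, Atp11a (0.41, adjusted p of 0.00876 against 0.927 with the filter). RLE and upper-quartile scaling kept 50 and 48 of the 50 genes.

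The replicate number as a block gave 111 genes, with Pctp called at −0.56. Taken over all tested genes, same-numbered libraries did not deviate together (correlation of −0.0072), so this correlation shows no pairing. Single genes, such as Pemt and Chpt1, had the same replicate order in both groups. Uncalled genes turned sign in places. That of Cept1 was 0.0026 with no filter. With 1 library left out the ranges were −0.013 to 0.019 for Stard10, −0.28 to 0.53 for Chka, −0.045 to 0.13 for Pcyt1a, −0.087 to 0.15 for Chpt1, −0.033 to 0.0196 for Cept1, −0.20 to 0.084 for Pemt, −0.46 to 0.067 for Lpcat3, −0.22 to 0.034 for Abcb4, −0.068 to 0.18 for Etnk2, −0.033 to 0.17 for Serinc1, −0.098 to 0.029 for Agpat2, −0.27 to 0.34 for Bhmt, −0.19 to 0.00042 for Abcb11, −0.071 to 0.082 for Abcc2, −0.058 to 0.0022 for Sgms2 and −0.56 to 0.11 for Foxo1.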

Other observations

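Outside the rule for named genes, and chosen after their values were seen, a few phospholipid genes at 10 CPM or more stood lower in both mutant libraries without passing the adjusted threshold. Gpcpd1, which splits glycerophosphocholine, was at 67.1 and 66.2 CPM in the wild type and 54.9 and 51.4 CPM in the mutant libraries (log2 fold change −0.33, SE 0.09, adjusted p = 0.268 in edgeR). The phospholipase Pla2g6 was at 28.8 and 29.3 against 23.0 and 25.6 CPM (−0.26, adjusted p = 0.663 in edgeR). Pltp, the phospholipid transfer protein of plasma, was at 20.1 and 20.6 against 14.8 and 18.3 CPM (−0.30, adjusted p = 0.676 in edgeR); exons of Ctsa on the opposite strand cover 19.3% of its exon bases. Pla2g4a, a cytosolic phospholipase, was higher at a low level, at 1.04 and 0.775 CPM in the wild type and 1.85 and 1.83 CPM in the mutant libraries (1.02, SE 0.29, adjusted p = 0.298 in edgeR). Macrophage markers were higher in the same libraries, and their part in this value was not tested.

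Lpin1, a phosphatidate phosphatase that supplies diacylglycerol, differed more inside the groups than between them. It was at 79.7 and 169 CPM in the wild type and 54.7 and 153 CPM in the mutant libraries, so replicate 2 was the higher library in both groups (log2 fold change −0.26, SE 0.86). Acot13, the thioesterase that binds Pctp, was at 24.6 and 28.3 CPM in the wild type and 26.8 and 22.2 CPM in the mutant libraries, and the groups overlapped (−0.11, SE 0.12).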
